A study of Mus musculus with 16 samples.

Results

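Cox6a2, Klk1, Klk1b27, Slpi, Rnase6, Smim5, Lefty1, Cd209d, Gm21762 and Pacsin1 are 10 genes that are not typical of T cells but gave many reads in conventional CD4+ T cells sorted from the mouse uterus. They were chosen by measured values, a mean level that was high in these cells and near 0 in regulatory T cells (Treg) of the same organ, so the contrast between these groups is given as a description. All 10 were found among the 49585 genes counted. RNA was sequenced from 16 libraries in 4 groups of 4. The first group, CD4conv, held CD4+Foxp3- cells from the uterus of non-pregnant mice. Pregnant uterine Treg were CD4+Foxp3+CD25- cells from the uterus on days 6 to 8 of pregnancy by their source label, although the titles of 3 of these libraries name a last day of 9, 10 or 11. Uterine Treg were CD4+Foxp3+CD25- cells from the uterus of non-pregnant mice, and lymph node Treg were CD4+Foxp3+CD25+ cells from the para-aortic lymph nodes of non-pregnant mice. All mice carried the Foxp3 IRES-GFP reporter on a BALB/c background, so Foxp3 status was read from a fluorescent protein. Each library came from a pool of animals, 20 where mice were not pregnant and 3 to 8 where they were. CD4conv and pregnant uterine Treg were sequenced in batch 1, and uterine Treg and lymph node Treg in batch 2.

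Plasmacytoid dendritic cells (pDC) are innate immune cells that sense viral nucleic acids through endosomal Toll-like receptors and release type I interferon. They depend on the transcription factor Tcf4, mouse pDC carry the surface lectin Siglech, and some of them carry CD4. Cox6a2, Klk1, Rnase6, Cd209d and Pacsin1 are known as transcripts of mouse pDC. Some of the genes are also known from other sources, Klk1 and Slpi from glandular and mucosal epithelium and Cox6a2 from heart and skeletal muscle.

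The promoters of 6 of the 10 genes were matched in RefSeq (GRCm38.p6), from 250 bases before to 50 bases after the transcription start. The 2 kallikrein promoters are shown because these genes of the same chromosome were close in sequence yet did not always appear together. That of Rnase6 is shown because it held 2 of the 3 motifs searched. RefSeq lists 3 promoters for Rnase6: the one printed, one that starts at position 51128814 and holds the same motifs, and one upstream, from position 51123658, that holds none. Capitals mark the motif CAGGTG (an E-box) or its reverse complement in the kallikrein genes, and, in Rnase6, the reverse complements of GAGGAA, of the kind bound by ETS factors, and of an interferon regulatory factor motif made of 2 GAAA blocks with 2 bases between them.
Klk1 (chr7:44225110-44225409, plus strand): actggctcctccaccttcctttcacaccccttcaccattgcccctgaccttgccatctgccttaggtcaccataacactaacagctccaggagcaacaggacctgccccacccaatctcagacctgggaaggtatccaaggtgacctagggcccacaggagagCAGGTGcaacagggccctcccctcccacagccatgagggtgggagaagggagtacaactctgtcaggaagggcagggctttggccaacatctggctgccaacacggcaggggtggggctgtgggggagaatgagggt
Klk1b27 (chr7:44052040-44052339, plus strand): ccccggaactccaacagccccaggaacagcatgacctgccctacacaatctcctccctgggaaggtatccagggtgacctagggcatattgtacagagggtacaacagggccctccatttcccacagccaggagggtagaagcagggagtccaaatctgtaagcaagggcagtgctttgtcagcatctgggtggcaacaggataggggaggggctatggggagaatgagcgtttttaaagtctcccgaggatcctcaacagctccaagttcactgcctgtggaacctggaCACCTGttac
Rnase6 (chr14:51128787-51129086, plus strand): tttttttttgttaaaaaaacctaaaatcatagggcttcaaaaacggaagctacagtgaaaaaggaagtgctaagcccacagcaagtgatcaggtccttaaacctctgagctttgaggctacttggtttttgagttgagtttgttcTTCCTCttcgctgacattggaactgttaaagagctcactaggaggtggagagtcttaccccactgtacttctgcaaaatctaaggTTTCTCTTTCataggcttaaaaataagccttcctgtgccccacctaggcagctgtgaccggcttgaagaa
CAGGTG, searched on both strands, lay in the promoters of 3 of the 6 genes, Klk1, Klk1b27 and Slpi, and of 22.6% of 27025 genes in the table. GAGGAA lay in 2 of the 6, Cd209d and Rnase6, and in 31.3% of all genes, and the interferon regulatory factor motif lay in Rnase6 and in 3.99% of all genes. The promoter of Pacsin1 held none of them. Where they aligned, with free ends, the Klk1 and Klk1b27 promoters were identical at 186 of 234 columns (79.5%), and their longest coding transcripts at 749 of 892 (84.0%).

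The libraries held 7.67e6 to 1.23e7 counts in CD4conv, 3.57e6 to 1.52e7 in pregnant uterine Treg, 2.02e6 to 5.62e6 in uterine Treg and 1.72e6 to 6.30e6 in lymph node Treg. Levels are given as counts per 1000000 counts of the library (CPM), with SD over 4 libraries. Foxp3 followed the sort, at 1.85 ± 1.52 CPM in CD4conv against 475 ± 318 in pregnant uterine Treg, 417 ± 210 in uterine Treg and 559 ± 182 in lymph node Treg. The 13 T cell markers summed to between 2192 and 5392 CPM in CD4conv and between 1920 and 7728 CPM in the 12 Treg libraries. Uterine Treg 5 stood apart from the rest of its group: its 15 uterine epithelial markers summed to 1039 CPM, against at most 107 CPM in the other 3 uterine Treg libraries.

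Klk1, tissue kallikrein, a serine protease that releases kinins from kininogen, was the most abundant of the 10 genes. It measured 646, 881, 758 and 279.5 CPM in the 4 CD4conv libraries. Its values were 9.34, 3.76, 0.329 and 5.32 CPM in pregnant uterine Treg, 0, 0, 0.424 and 160.9 CPM in uterine Treg, and 0.318, 0.476, 1.16 and 1.26 CPM in lymph node Treg. Every CD4conv library lay above every Treg library, and a single Treg library, uterine Treg 5, exceeded 10 CPM. In that library Klk1 had 325 reads, while the other 3 uterine Treg libraries held 1 read in all.

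Klk1b27, a kallikrein 1-related peptidase on the same chromosome, measured 119, 104.7, 117 and 46.6 CPM in CD4conv. Its Treg values were 0.617 to 1.68 CPM in pregnant uterine Treg, 0.708 to 4.24 CPM in uterine Treg and 1.01 to 4.07 CPM in lymph node Treg. In CD4conv there were 5.45, 8.42, 6.50 and 5.99 Klk1 reads for each Klk1b27 read. Uterine Treg 5 held 325 Klk1 reads and 2 Klk1b27 reads, a ratio of 162.5, and pregnant uterine Treg 1 held 121 and 8, a ratio of 15.1. Those 2 ratios lay above the CD4conv range and the ratios of the other 10 Treg libraries below it, at 0 to 3.17, where Klk1 had at most 19 reads and Klk1b27 at most 17.

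Beside Klk1, uterine Treg 5 held the epithelial keratins Krt8 at 170 CPM and Krt18 at 126 CPM, the secreted protein Wfdc2 at 119 CPM and the cornified envelope gene Sprr2f at 191 CPM. The highest values in the other uterine Treg libraries were 2.55, 5.52, 1.70 and 11.5 CPM for these genes. Of the 15 epithelial markers, 14 were higher in uterine Treg 5 than in every other uterine Treg library, the exception being Muc1, and 12 were higher than in every CD4conv library. Cdh1, Elf3 and Muc1 reached higher values in a CD4conv library, for Cdh1 180 CPM against 74.7 CPM in uterine Treg 5. The same Treg library had no read of Cox6a2, Lefty1 or Gm21762. The part of epithelial RNA in its Klk1 reads was not tested.

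**Figure D1:**
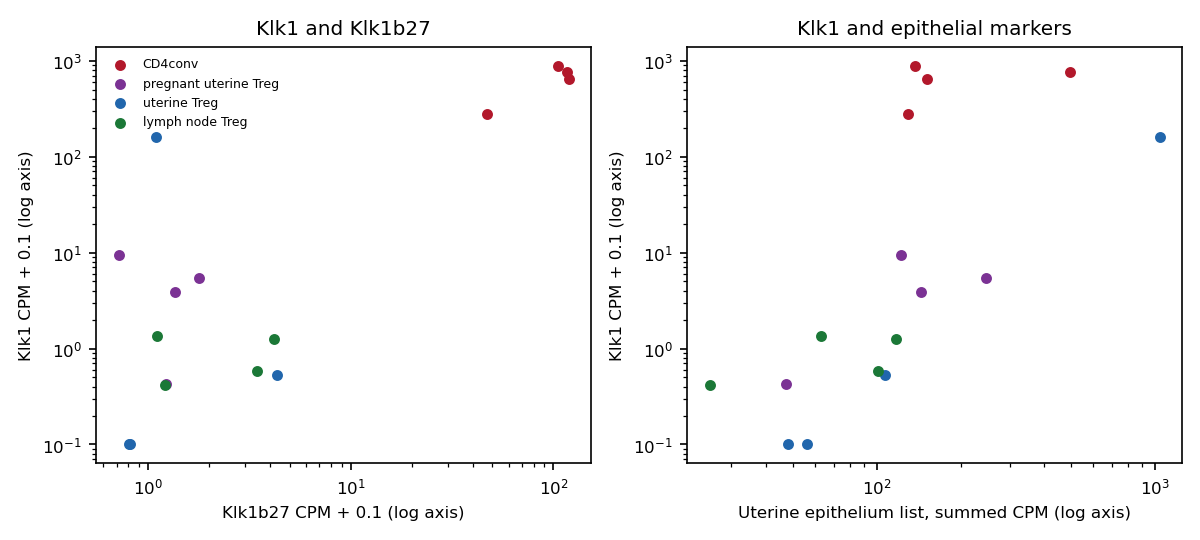
Level of Klk1 (CPM + 0.1, log axis) in 16 libraries against that of Klk1b27 (left) and against the summed CPM of 15 uterine epithelial markers (right), colour giving the group. The 4 CD4conv libraries lie at the upper right of the left panel, while uterine Treg 5, at 160.9 CPM of Klk1, has 0.990 CPM of Klk1b27 and the highest epithelial sum of all, 1039 CPM.

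Slpi encodes a secreted inhibitor of leukocyte serine proteases. It measured 192, 334, 218 and 59.4 CPM in CD4conv, against 2.93, 1.67, 0.197 and 0 CPM in pregnant uterine Treg, 3.54, 10.5, 5.94 and 15.3 CPM in uterine Treg, and 0.476, 3.81, 4.66 and 0 CPM in lymph node Treg. Its highest Treg value was again in uterine Treg 5, and its CD4conv values spread the most of the 10 genes, by 5.62-fold between the highest and the lowest library.

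Rnase6, a secreted ribonuclease with antimicrobial activity, measured 286, 244, 349 and 144 CPM in CD4conv. It stayed between 1.65 and 8.95 CPM in pregnant uterine Treg, 0 and 7.92 CPM in uterine Treg, and 0.159 and 4.66 CPM in lymph node Treg. Cd209d, a C-type lectin receptor that binds glycans of pathogens, measured 82.1, 132, 114 and 42.2 CPM in CD4conv. Its Treg values ran from 1.47 to 4.94 CPM in pregnant uterine Treg, from 0 to 5.44 CPM in uterine Treg and from 0.635 to 6.98 CPM in lymph node Treg. Low but regular reads in Treg libraries set Cd209d apart from Cox6a2 and Gm21762: 1 of its 12 Treg values was 0.

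Cox6a2 is the muscle-type isoform of a cytochrome c oxidase subunit in the mitochondrial respiratory chain. It measured 138, 225, 149 and 57.9 CPM in CD4conv, where 5962 reads fell on it. The 12 Treg libraries held 5 reads between them, 3 in pregnant uterine Treg, 0 in uterine Treg and 2 in lymph node Treg. Set against a floor of 3 counts over the 4 uterine Treg libraries, its mean was at least 609-fold higher in CD4conv. Cox6a1, the isoform of most tissues, averaged 224 ± 116 CPM in CD4conv against 133 ± 50.2 in pregnant uterine Treg, 141 ± 55.4 in uterine Treg and 179 ± 76.6 in lymph node Treg, and these means overlapped within their SD. Striated muscle markers, 12 genes, summed to between 76.6 and 96.4 CPM in CD4conv and between 16.6 and 137 CPM in Treg.

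Lefty1, an extracellular antagonist of Nodal signalling, measured 36.4, 39.2, 50.8 and 20.7 CPM in CD4conv and at most 0.953 CPM in any Treg library. Smim5, a small membrane protein, measured 48.9, 91.4, 56.3 and 22.3 CPM in CD4conv and at most 3.55 CPM in a Treg library. Gm21762, a predicted protein-coding gene of unknown role, measured 33.9, 52.1, 37.3 and 15.2 CPM in CD4conv. Of the 12 Treg libraries 11 had no read of it and pregnant uterine Treg 1 had 4 reads, so that its mean was at least 148-fold higher in CD4conv than the floor of 3 counts in uterine Treg and at least 162-fold higher than that in lymph node Treg.

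Pacsin1, an endocytic adaptor of neurons that also takes part in the interferon response of pDC, went against the pattern of the others. It measured 112, 134, 109.5 and 55.8 CPM in CD4conv, against 15.4, 3.76, 9.28 and 1.12 CPM in pregnant uterine Treg and 0, 11.9, 0.849 and 1.48 CPM in uterine Treg. In lymph node Treg it measured 81.1, 56.7, 41.9 and 63.5 CPM, and 3 of these values lay above that of CD4conv 5. Its mean in CD4conv was 13.9 times that in pregnant uterine Treg, 28.9 times that in uterine Treg and 1.69 times that in lymph node Treg. The term confined to CD4conv therefore did not describe Pacsin1, whose reads were present in Treg of the lymph node.

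**Figure D2:**
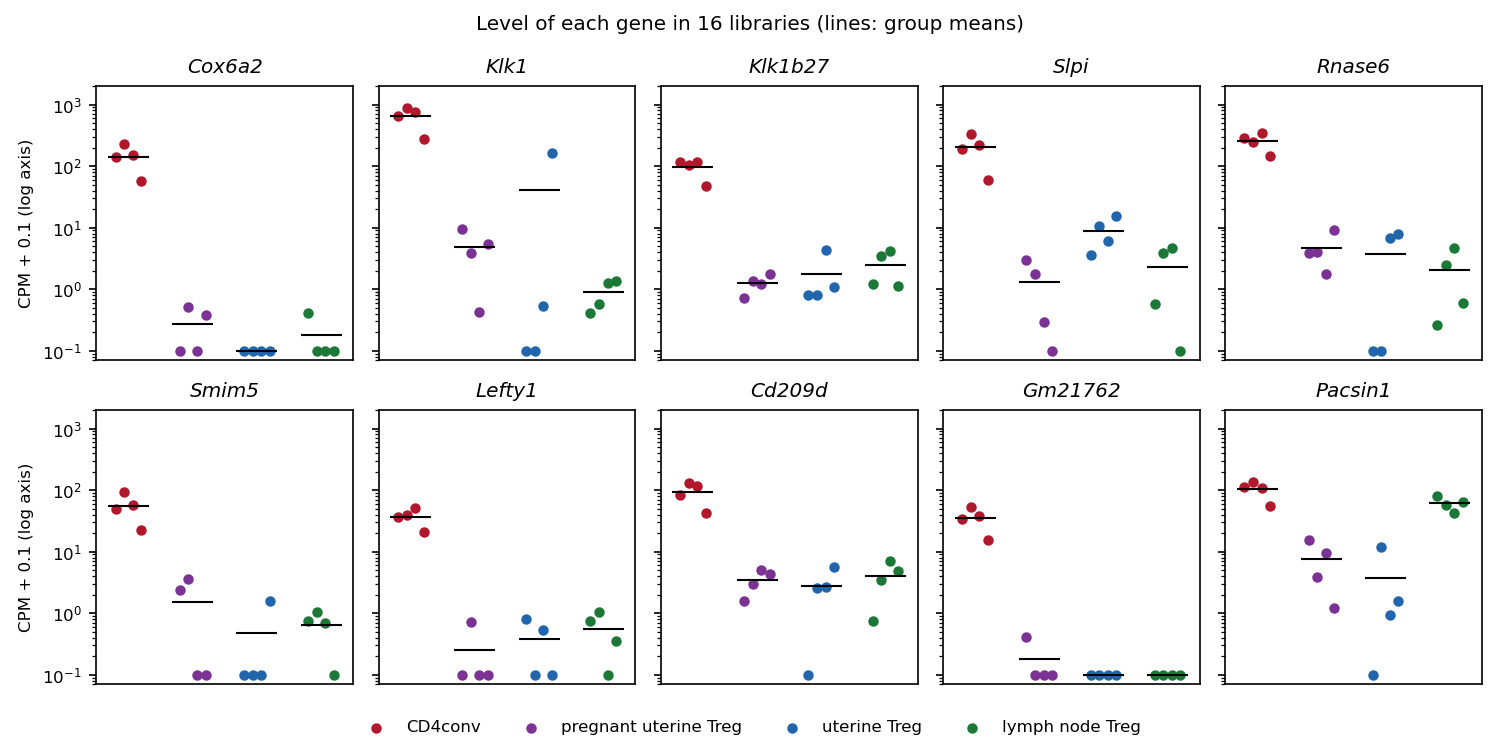
Level of each of the 10 genes (CPM + 0.1, log axis) in the 4 libraries of each group, with lines at the group means. In 9 panels all CD4conv points lie above all Treg points, Klk1 has 1 uterine Treg point at 160.9 CPM, and Pacsin1 has lymph node Treg points between 41.9 and 81.1 CPM.

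For 9 of the 10 genes, all but Pacsin1, the 4 CD4conv libraries lay above all 12 Treg libraries, a pattern seen for 0.904% of the 30096 genes tested. Since the genes were chosen for it, that count is a description and was not tested. Together they gave 1694, 2238, 1959 and 744 CPM in CD4conv (1659 ± 649, SD, n = 4). The same sum was 17.5 to 36.0 CPM in pregnant uterine Treg, 4.95 to 194 CPM in uterine Treg, where 83.1% of the reads in the highest library were Klk1, and 64.0 to 85.4 CPM in lymph node Treg, where without Pacsin1 it was 4.29 to 22.1 CPM. In bulk samples, fewer cells of a type and less RNA per cell cannot be told apart. Of the 120 values of these genes in Treg libraries, 40 were 0 and 84 were at or below the level that olfactory and vomeronasal receptor genes, taken as silent, reached per exonic base in the same library. 6 values exceeded that level 5-fold.

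Per kilobase of exon, the scale on which different genes can be compared, the mean level in CD4conv was highest for Klk1, at 595 ± 241 CPM per kb. Cox6a2 followed at 210 ± 101, Slpi at 170 ± 95.5, Klk1b27 at 109 ± 38.1, Cd209d at 101 ± 43.0 and Rnase6 at 96.0 ± 32.3 CPM per kb, and these 5 overlapped within their SD. Gm21762 at 41.7 ± 18.3, Smim5 at 33.2 ± 17.3, Lefty1 at 20.9 ± 7.04 and Pacsin1 at 15.8 ± 5.11 CPM per kb formed the lower end, each within the SD of its neighbour.

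The 10 genes moved together in part among the CD4conv libraries. CD4conv 5 was the lowest library for all 10, at 0.296 to 0.564 of each gene's mean over the 4 libraries. The share of all genes that were lowest in CD4conv 5 was not computed. Summed markers of pDC, conventional dendritic cells, macrophages, NK cells, B cells and uterine epithelium were also lowest there. Those of neutrophils, striated muscle and T cells were not. CD4conv 2 was the highest for 7 of them, CD4conv 3 for Rnase6 and Lefty1, and CD4conv 1 for Klk1b27. Klk1 made up 38.1%, 39.4%, 38.7% and 37.6% of the reads of the 10 genes in CD4conv 1, 2, 3 and 5, although Klk1 itself differed 3.15-fold between the highest and the lowest library.

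**Figure D3:**
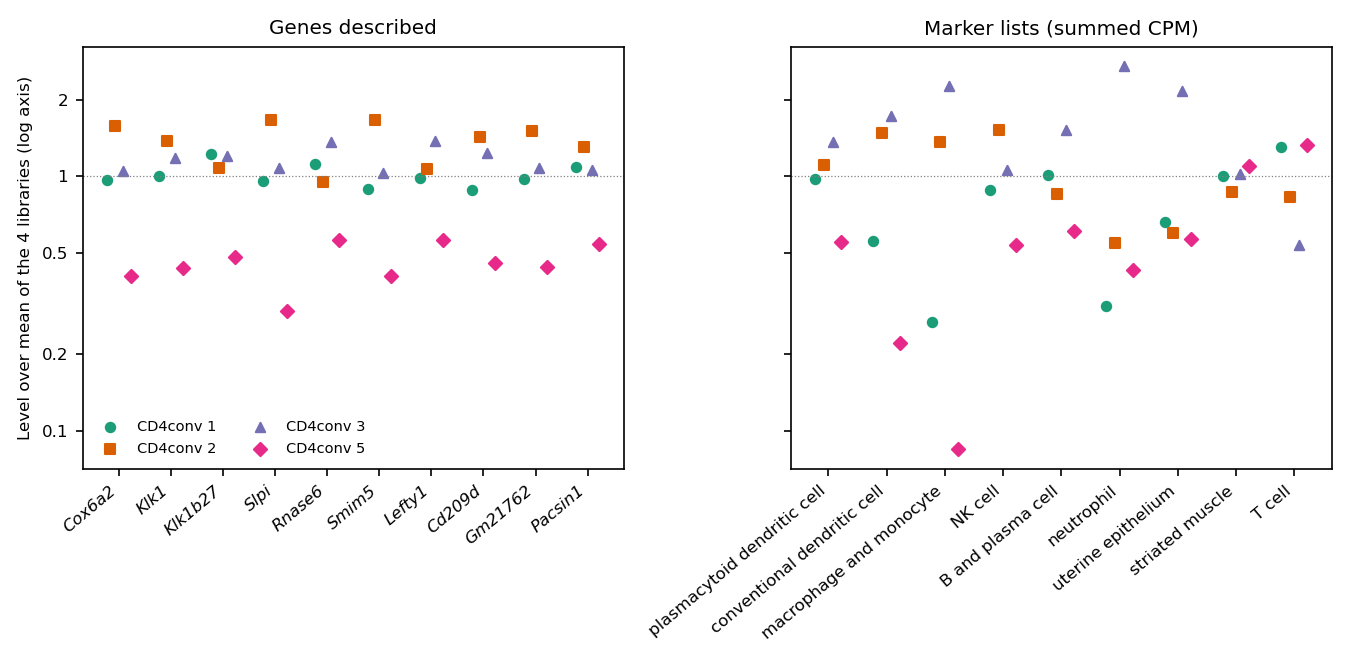
Level of each gene (left) and of the summed CPM of each marker list (right) in the 4 CD4conv libraries, divided by its mean over them (log axis). On the left the points of CD4conv 5 lie between 0.296 and 0.564 for all 10 genes; on the right CD4conv 5 is at 0.551 for the pDC list, 0.0845 for the macrophage list and 1.33 for the T cell list.

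Whether the genes kept 1 ratio was asked by dividing each gene's CPM by the summed CPM of the other 9 and comparing the coefficient of variation (CV) over the 4 libraries before and after. The median CV was 15.9% after the division and 41.5% before it, and the CV was lower for 10 of 10 genes. How many of all genes would show a lower CV in this way was not computed. Klk1 came to 3.27% after division, from counts whose own sampling gives 1.47%. With the summed pDC list as divisor, the CV was again lower for 10 of 10 genes, with a median of 20.7%. It ran from 2.69% for Lefty1, below the 5.78% that sampling of its counts gives, to 42.9% for Slpi. The NK cell list as divisor gave 10 of 10 and a median of 15.9%. It gave 7 of 10 and 39.5% once Tyrobp was taken out, which on average made up most of that list's reads. Tyrobp is an adaptor of receptors on NK and myeloid cells and so is not particular to NK cells. It averaged 774 ± 418 CPM in CD4conv, against 156 ± 66.2 CPM for Nkg7, the next gene of the list. Single genes as divisor gave 9 of 10 and 16.5% for Tyrobp and 10 of 10 and 22.3% for the NK cell receptor Ncr1. Siglech alone gave 10 of 10 and 28.3%, so the pDC list was not the only one that the genes followed.

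Other lists did not follow the genes in this way. Division by the B and plasma cell list lowered the CV of 5 genes and division by the conventional dendritic cell list that of 3. The latter list averaged 9266 CPM in CD4conv, most of it from antigen presentation genes. These were Cd74 (5247 CPM), H2-Ab1 (1348 CPM), H2-Aa (993 CPM) and H2-Eb1 (949 CPM). The division therefore says little about the other genes of that list. Division by the macrophage, neutrophil, uterine epithelium, striated muscle or T cell list lowered it for 0 of 10, with medians of 85.9%, 72.8%, 62.6%, 48.6% and 69.0%. The T cell list ran the other way from the genes in part: its sums of 5277, 3369, 2192 and 5392 CPM in CD4conv 1, 2, 3 and 5 put CD4conv 5 highest.

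Much of this common movement was the drop in CD4conv 5. Without that library the median CV was 18.1% after division by the other genes and 20.6% before, and the CV was lower for 7 of 10 genes, the exceptions being Klk1b27, Rnase6 and Lefty1. Division by the pDC list then lowered the CV of 3 of 10 genes, with a median of 21.1%, and division by the NK cell list that of 6 of 10, with a median of 11.9%. The NK cell list without Tyrobp then also gave 6 of 10, with a median of 16.5%, and Siglech alone gave 2 of 10 and 24.6%. Among CD4conv 1, 2 and 3 the genes also differed in order: Cox6a2, Slpi, Smim5, Gm21762, Klk1, Cd209d and Pacsin1 were highest in CD4conv 2, whereas the summed pDC list was highest in CD4conv 3. These are descriptions over 4 libraries, too few for a correlation, and whether the 10 genes share a cell source was not tested.

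**Figure D4:**
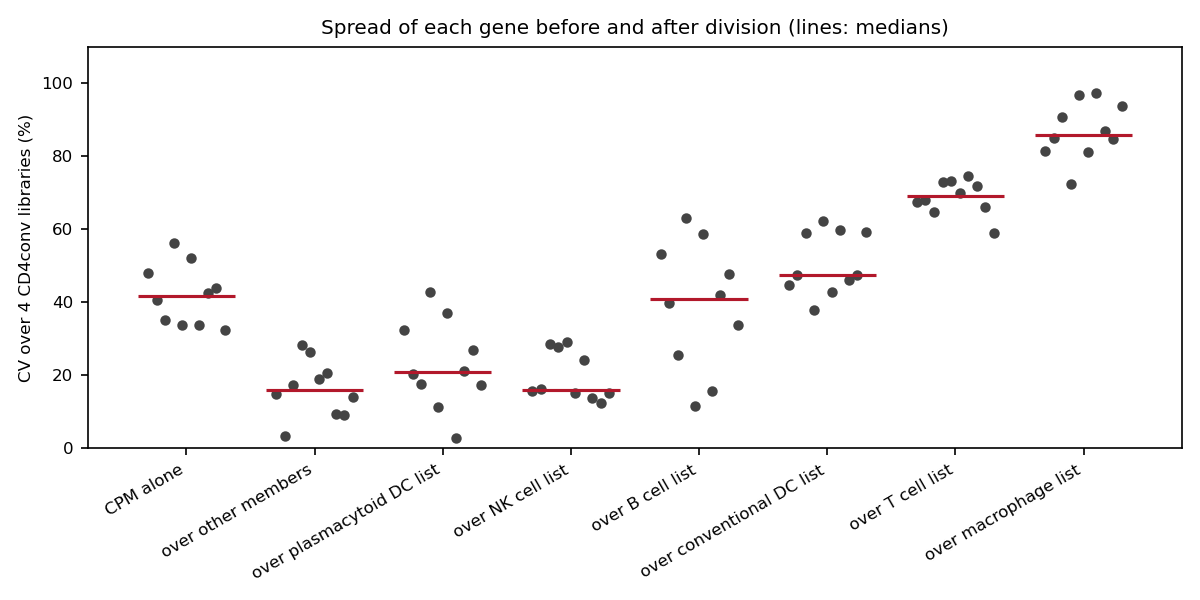
Coefficient of variation over the 4 CD4conv libraries (%) of each of the 10 genes (points), for CPM alone and after division by the sum of the other genes or of a marker list, with lines at the medians. The medians are 41.5% for CPM alone, 15.9% over the other genes, 20.7% over the pDC list, 15.9% over the NK cell list, 40.9% over the B cell list, 47.5% over the conventional dendritic cell list, 69.0% over the T cell list and 85.9% over the macrophage list.

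Established pDC markers were abundant in the same CD4conv libraries. The 20 genes of that list summed to 6972, 7860, 9670 and 3912 CPM in CD4conv, against 664 to 1029 CPM in pregnant uterine Treg, 317 to 798 CPM in uterine Treg and 402 to 645 CPM in lymph node Treg. Siglech averaged 1225 ± 352 CPM in CD4conv, against 35.4 ± 35.7 CPM in pregnant uterine Treg, 23.9 ± 19.1 CPM in uterine Treg and 16.1 ± 12.1 CPM in lymph node Treg (SD, n = 4 each). Of the 20, 14 were called higher in CD4conv than in uterine Treg by edgeR's quasi-likelihood test at an adjusted p of 0.05, against 0.485% of all genes tested, with a median log2 fold change of 4.19 against 0.05 over all genes. Against pregnant uterine Treg, in the same sequencing batch, 9 of 20 were called (0.399% of all genes), with a median of 3.31 against -0.07 over all genes, and against lymph node Treg 11 of 20 (0.591%), with a median of 3.44 against -0.02. None of the 20 was called lower in these comparisons, which share the CD4conv libraries and in which 0.0332%, 0.0332% and 0.0731% of all genes were called lower. The marker lists were chosen with earlier results of these data known. The counts for this list and for those below are therefore descriptions and no independent evidence.

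By role, Siglech, the chemokine receptor Ccr9, the transcription factor Irf8, the endolysosomal exonuclease Pld4 and the surface antigen Ly6c2 were called in all 3 comparisons and in each of the 8 fits per comparison that left out 1 library. The transcription factor Spib averaged 169 ± 63.2 CPM in CD4conv, against 2.46 ± 4.37 CPM in pregnant uterine Treg, 4.01 ± 5.09 CPM in uterine Treg and 1.06 ± 0.97 CPM in lymph node Treg. Tcf4 was called higher in CD4conv than in uterine Treg (log2 fold change 2.89, edgeR adjusted p = 0.0343) and than in lymph node Treg (3.01, adjusted p = 0.0166), and its adjusted p against pregnant uterine Treg was 0.151. These Tcf4 calls held in 2 of the 8 fits without 1 library against uterine Treg and in 4 of 8 against lymph node Treg, and the Spib call against uterine Treg held in 3 of 8. The nucleic acid receptor Tlr7 averaged 103 ± 41.3 CPM in CD4conv, while Tlr9 was at 2.94 ± 1.41 CPM there and was not called in any of the 3. Irf7, Rpgrip1, Cd300c, Havcr1 and Upb1 of the pDC list were also not called in any of the 3. Rpgrip1 averaged 71.2 ± 12.5 CPM in CD4conv, against 61.5 ± 38.2, 50.1 ± 41.6 and 40.9 ± 31.2 CPM in pregnant uterine, uterine and lymph node Treg. The count of 14 against uterine Treg was 9 without CD4conv 3, 9 without uterine Treg 1 and 8 among genes above background. The count of 9 against pregnant uterine Treg was 14 with DESeq2 and 6 in a fit of the 2 groups only.

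Markers of other cells were also raised in CD4conv. Against uterine Treg, 7 of 15 conventional dendritic cell genes were called higher, among them Cd74, H2-Aa, H2-Ab1 and H2-Eb1 of antigen presentation, and Itgae was called lower, against 0.0332% of all genes called lower. In the same comparison 4 of 16 macrophage and monocyte genes were called higher, of which Cd68 was called in all 8 fits without 1 library and C1qa, Fcgr1 and Ms4a7 in 2 of 8. Tyrobp and Klrd1 (the second in 1 of 8 such fits) of 11 NK cell genes tested and Fcrla of 11 B and plasma cell genes tested were called higher, and 0 of 9 neutrophil, 12 uterine epithelium, 9 striated muscle and 13 T cell genes tested. Beside that 0, the numbers of these genes with an unadjusted p under 0.05 were 2, 1, 2 and 0. In the same comparison 13 of 15 conventional dendritic cell, 13 of 16 macrophage and 8 of 11 NK cell genes had an edgeR unadjusted p under 0.05. For the pDC list it was 18 of 20. The median log2 fold changes of these lists were 3.85, 4.01 and 3.33, beside 4.19 for the pDC list. Against pregnant uterine Treg, 7 of 15 conventional dendritic cell genes (median log2 fold change 3.87) and 5 of 16 macrophage and monocyte genes (4.11) were called higher. Against lymph node Treg these numbers were 9 of 15 (4.63) and 11 of 16 (5.69), beside 11 of 20 (3.44) for the pDC list, so a higher level in CD4conv was not particular to pDC markers. With DESeq2 the macrophage count was 7 against uterine Treg and 10 against pregnant uterine Treg, and with 2 groups only it was 2 and 1. The macrophage list summed to 1380, 7076, 11757 and 436 CPM in CD4conv 1, 2, 3 and 5 and so varied far more than the 10 genes.

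Mzb1, a chaperone of the endoplasmic reticulum in antibody-secreting cells and pDC, had the profile most like the mean profile of the 10 genes among 8053 protein-coding genes with at least 20 CPM in CD4conv. Its log2(CPM + 1), centred over the 16 libraries, differed from the genes' mean profile by 0.472 on average. That profile is dominated by the contrast of CD4conv with Treg by which the genes were chosen, and candidates were filtered on their CD4conv level, so this order describes likeness and is no independent evidence. The next were the lysosomal protease Ctsh (0.490), Irf8 (0.536), the ephrin receptor Epha2 (0.545), the membrane adaptor Scimp (0.555), the heparan sulfate enzyme Hs3st1 (0.605), progranulin Grn (0.638), Cd68 (0.654), Cd8b1 (0.659) and Ccr9 (0.679). Mzb1 averaged 54.6 ± 22.9 CPM in CD4conv and reached at most 2.97 CPM in a Treg library. In 9 of these 10, all but Epha2, the lowest CD4conv library was CD4conv 5. By the same measure, each of the 10 genes lay between 0.389 (Gm21762) and 2.06 (Pacsin1) from the mean profile of the others, with Klk1 second farthest at 1.71.

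Relatives of the genes differed in whether they shared the pattern. Of 22 Klk1b genes and pseudogenes beside Klk1b27, 6 reached a mean of 5 CPM in any group and the highest such mean was 18.1 CPM. Lefty2, the nearest relative of Lefty1, reached at most 1.07 CPM as a group mean. Pacsin2 averaged 72.5 ± 24.6 CPM in CD4conv, against 58.5 ± 19.0 CPM in pregnant uterine Treg, 45.1 ± 23.5 CPM in uterine Treg and 39.7 ± 6.46 CPM in lymph node Treg. Cd209a, a lectin of dendritic cells, averaged 228 ± 127 CPM in CD4conv, against 37.0 ± 26.8 CPM in pregnant uterine Treg, 22.5 ± 14.5 CPM in uterine Treg and 11.97 ± 6.42 CPM in lymph node Treg. Wfdc17, from the same domain family as Slpi, averaged 83.3 ± 88.7 CPM in CD4conv and 3.26 ± 3.98, 4.83 ± 5.03 and 1.26 ± 1.17 CPM in pregnant uterine, uterine and lymph node Treg. Of 18 Wfdc genes, 8 reached a mean of 5 CPM in any group, and those beside Wfdc17 had their highest mean in a Treg group.

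Reads of near-identical sequence limit some of these values. Of the 50-base windows of each gene's longest transcript, 77.5% of those of Gm21762 also occurred in D13Ertd608e, 28.4% of those of Klk1 in other genes, Klk1b5 foremost, 17.9% of those of Lefty1 in Lefty2 and 14.3% of those of Klk1b27 in other kallikrein genes. D13Ertd608e itself measured 8.20, 12.03, 6.14 and 3.52 CPM in CD4conv, in the same order of libraries as Gm21762 at the lowest and the highest. The Cox6a2 transcript shared 70 exonic bases with Itgad on the opposite strand, and the library kits did not mark strand. Slpi, Rnase6, Smim5, Cd209d and Pacsin1 had no shared window.

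In GENCODE M21 on GRCm38, Cox6a2 (ENSMUSG00000030785) lies at chr7:128205435-128206387 on the minus strand, Klk1 (ENSMUSG00000063903) at chr7:44225360-44229618 and Klk1b27 (ENSMUSG00000063177) at chr7:44052290-44056712, both on the plus strand. Slpi lies at chr2:164354070-164389095, Rnase6 at chr14:51123908-51132187, Smim5 at chr11:115899966-115906269, Lefty1 at chr1:180935022-180938400, Cd209d at chr8:3871824-3878555, Gm21762 at chr13:120214593-120215947 and Pacsin1 at chr17:27655509-27711482. All 10 are annotated as protein-coding, and reads were counted over their exons.

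Neither pregnant uterine Treg nor lymph node Treg was used to choose the genes, so the comparison between these groups was tested. It crosses tissue, CD25 status, pregnancy and sequencing batch, which cannot be told apart. Cox6a2, Lefty1 and Gm21762, with 3, 3 and 4 reads in pregnant uterine Treg and 2, 7 and 0 in lymph node Treg, entered the fit through their CD4conv reads and were too low here to be judged. Klk1b27 and Smim5, with 37 and 46 reads in pregnant uterine Treg and 25 and 7 in lymph node Treg, also entered through their CD4conv reads. For these genes the lack of a call is therefore no result. The edgeR test called 0 of the 7 remaining genes, and 0% of all 30096 genes, at an adjusted p of 0.05; at an unadjusted p of 0.05 it called Pacsin1 among the 7 and 3.1% of all genes, while DESeq2 called 45 of all genes and 0 of the 7. Pacsin1 averaged 7.38 ± 6.31 CPM in pregnant uterine Treg and 60.8 ± 16.3 CPM in lymph node Treg, a log2 fold change of -2.91 ± 0.95 (SE; edgeR unadjusted p = 0.00541, adjusted p = 0.99994). Its 4 values in pregnant uterine Treg all lay below the 4 in lymph node Treg, and 2.66% of all genes tested showed that order. In either direction, no overlap was seen for 1 of the 10 genes and for 4.29% of all genes tested.

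For the remaining 9 genes the levels in these groups overlapped. The log2 fold change was 2.54 ± 1.45 for Klk1, 1.43 ± 0.89 for Rnase6, 1.25 ± 1.17 for Smim5, -0.03 ± 0.73 for Cd209d, -0.34 ± 0.96 for Slpi and -0.95 ± 0.63 for Klk1b27 (SE). For Cox6a2, Lefty1 and Gm21762 no fold is given. These intervals are wide at such counts, and an adjusted p above the threshold does not show equal levels.

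**Figure D5:**
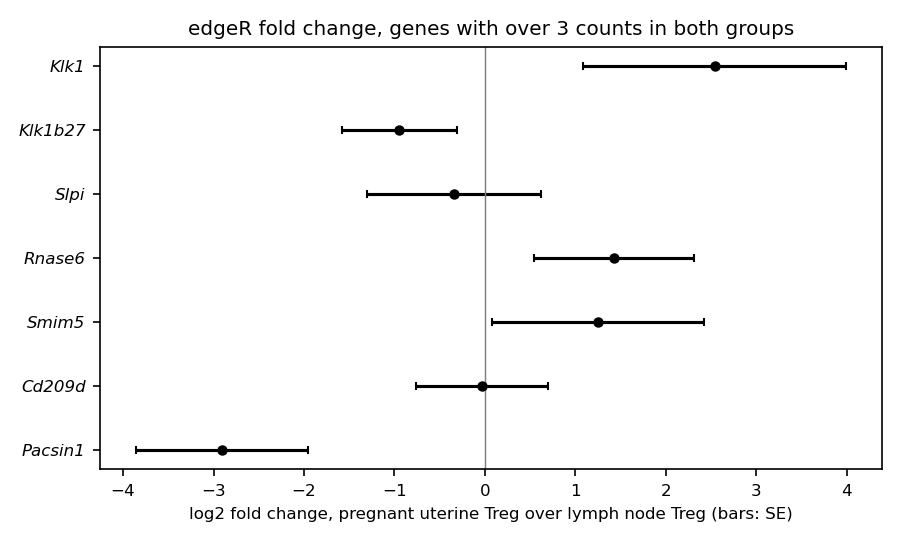
Log2 fold change of pregnant uterine Treg over lymph node Treg from edgeR (points, bars: SE; 4 libraries each) for the 7 genes with over 3 reads in both groups. Pacsin1 lies at -2.91 and Klk1 at 2.54, and none of the 7 passed the adjusted threshold. Klk1b27 and Smim5 entered the fit through their CD4conv reads.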

How the data were processed

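The authors deposited counts of reads per gene, not normalized, for 49585 genes in 16 libraries, as a table of the series and as 16 single files that were identical to it. Per the labels' protocols, cells enriched for CD4 went through a flow cytometry sort, SMART-Seq v4 made the cDNA and Nextera XT the libraries, and pairs of 150-base reads were obtained in 2 batches. The submitters' processing notes name featureCounts, HISAT2, DESeq2, Trimmomatic and SAMtools, and the build GRCm38, without versions. GENCODE M21 named 49326 of the genes.

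The 10 genes and the marker lists were chosen with earlier results of these data known. CPM was computed over all counts of a library. Tests used edgeR 4.0.16 in R 4.3.3 (quasi-likelihood, TMM, filterByExpr, robust, all 16 libraries, 12 residual degrees of freedom) on 30096 genes, adjusted by Benjamini-Hochberg with calls at 0.05, checked on simulated counts. Alternatives were DESeq2 1.42.0, its size factors, no filter, 2 groups only, genes 5 times above the level of 1427 receptor genes, the replicate number as a block, and leaving out each library. The text names all 10 genes and the 10 most alike protein-coding genes. Of the paralogs, the pDC list and the other marker lists it names a part, picked with their values known. Markers of uterine Treg 5, Foxp3, Ncr1 and D13Ertd608e were added after their values were seen. Replicates are pools of mice, and no 2 libraries of the same group agreed within sampling noise (lowest chi-square per degree of freedom 3.86). Pairs from different groups were not checked. CD4conv shares no batch with uterine Treg or lymph node Treg. CPM has a counting error that is widest in the shallow Treg libraries.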

Additional observations from a re-analysis of the deposited data

Results flagged for a closer look

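A library was singled out where it lay far from the other 3 of its group (by Dixon's criterion), which was the case in 12 of 80 groups. The criterion's rate of about 1 in 20 by chance holds for independent, normally distributed values. These values are neither, and a group with reads in 1 library and none in the other 3 is always flagged. The 12 therefore cannot be set against that rate. Klk1 stood at 160.85 CPM in uterine Treg 5, where the next highest library had 0.4245 CPM. The sum of the 10 genes in that library was therefore 193.52 CPM. In it the uterine epithelium markers summed to 1038.8 CPM and the macrophage and monocyte markers to 1227.4 CPM. Smim5 was at 1.4848 CPM there, from 3 reads. CD4conv 3 held 496.84 CPM of uterine epithelium markers and 338.84 CPM of neutrophil markers, against at most 151.3 and 68.12 CPM in the other CD4conv libraries.

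Pacsin1 was at 11.932 CPM in uterine Treg 2, from 67 reads. Klk1b27 was at 4.2447 CPM in uterine Treg 3, from 10 reads. The remaining 3 rest on 2 to 4 reads, with 0 in the other libraries of the group: Gm21762 at 0.30867 CPM in pregnant uterine Treg 1, Lefty1 at 0.62689 CPM in pregnant uterine Treg 2 and Cox6a2 at 0.31754 CPM in lymph node Treg 1.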

How the results depend on the processing

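Genes called higher in CD4conv than in uterine Treg numbered 146, with 10 lower. DESeq2 gave 288, leaving out 1 library gave 69 to 165 (80 without CD4conv 2, 69 without CD4conv 3, 79 and 90 without uterine Treg 1 and 3), and restricting the test to genes above background gave 141 higher and 147 lower. Against pregnant uterine Treg, 120 were higher and 10 lower. The count of higher genes was 274 with DESeq2, 76 with 2 groups only and 70 to 155 without 1 library (70 without CD4conv 3, 76 without pregnant uterine Treg 2), and genes above background gave 202 higher and 194 lower. Against lymph node Treg, 178 were higher and 22 lower. The higher genes numbered 367 with DESeq2, 361 with 2 groups only and 96 to 223 without 1 library (116 without CD4conv 3, 108, 107 and 96 without lymph node Treg 1, 2 and 5), and genes above background gave 225 higher and 136 lower. Between pregnant uterine Treg and lymph node Treg the count was 0, 45 with DESeq2, 111 among genes above background, and 0 to 1 without 1 library (1 without pregnant uterine Treg 4).

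With the replicate number as a block the counts were 106, 139, 294 and 20 in the same order. The correlations of same-numbered libraries ran from -0.403 to 0.365, and the numbers of pregnant uterine Treg were given in accession order, so the libraries shared only a number. In that fit Pacsin1 was called between pregnant uterine Treg and lymph node Treg (log2 -2.67, adjusted p = 0.04999, against 0.138 with DESeq2 and 0.767 to 1 under the other alternatives), making 1 of the 10 genes; without 1 library the number was 0 to 0.

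The number of the 10 genes with a lower CV after division was 10 with the other genes as divisor and 7 to 10 without 1 library. It was 3 with the conventional dendritic cell list, 5 with the B and plasma cell list and 0 each with the macrophage, neutrophil, uterine epithelium, striated muscle and T cell lists. These divisors, and the repeats without CD4conv 5, were chosen after seeing the data. The summed level of the 10 genes in CD4conv averaged 1465.9 to 1963.9 CPM without 1 library. No direction turned round among results called under any alternative run. The shallow Treg libraries limit values under 1 CPM, which rest on a few reads. The cause of these differences was not tested.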
